A study of Mus musculus with 44 samples.

Results

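The regions described here are the restriction fragments that lay more than 50 kb and up to 200 kb from one of 5 4C-seq baits in mouse liver and kidney. They were chosen by distance alone, on both sides of each bait, and number 2236 of the 30070 fragment entries deposited within 2000 kb of the baits. Each entry carries 1 contact signal for liver and 1 for kidney. A pair of the baits, Slc45a3short and Slc45a3long, lie 8444 bases apart, so their windows share fragments and the 2236 entries stand for 1800 distinct fragments. Of the other entries, 672 lay nearer to a bait and 27162 farther away.

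The study followed RNA in kidneys of wild-type and Bmal1 knockout mice around the day, and measured contacts of selected promoters by 4C-seq. All 20 4C-seq libraries came from wild-type (WT) C57BL/6 mice fed ad libitum and aged 8 to 12 weeks, and no knockout entered them. Liver and kidney of individual animals were fixed with 1.5% formaldehyde before nuclei were prepared. For every bait there were 2 libraries of liver and 2 of kidney, made at zeitgeber time (ZT, hours after lights on) 20, except for Pi3kap1 at ZT8. Both libraries of an organ enter the same deposited signal, so the spread between animals is unknown and no difference between tissues below was tested. Bait and time cannot be told apart for Pi3kap1. Both organs are mixtures of cell types, and a contact made in more cells cannot be told apart from one made more often in each cell.

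In 4C-seq, chromatin is crosslinked, cut with a restriction enzyme and ligated, and the DNA joined to a chosen bait fragment is sequenced. Contacts are most frequent next to the bait and become rarer along the chromosome, because nearby stretches of a chromatin fibre meet often. Enhancers act on promoters at distances of this kind by looping, and many enhancers are active in one tissue and silent in another. The clock factors BMAL1 and CLOCK bind E-boxes, with CACGTG as the canonical form, and CTCF bound at convergent sites holds the ends of many loops.

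The Mreg bait lay 353 bases upstream of the start of Mreg (melanoregulin, a protein of melanosome transport), and the Slc44a1 bait 200 bases upstream of Slc44a1, which encodes a choline transporter. The Pi3kap1 bait was read as Pik3ap1, the gene of an adaptor of phosphoinositide 3-kinase, and lay 336 bases inside it. The Slc45a3long bait lay 30 bases upstream of Slc45a3, a member of a family of sugar transporters, and the Slc45a3short bait 8414 bases inside the same gene. Sides are called left for lower and right for higher chromosome coordinates. Mreg and Pik3ap1 are on the minus strand, so left of these baits runs into the gene and right runs upstream. Slc44a1 and Slc45a3 are on the plus strand, and right runs into the gene.

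The sequences below are shown because they hold the greatest tissue differences found in the windows: for each bait the fragment of greatest absolute difference, and for Pi3kap1 and Slc45a3short also the fragment of greatest kidney excess, which was chosen after its value was seen. They are the first 300 bases of each fragment, on the plus strand of GRCm38, and none of these runs overlaps an annotated exon. Capitals mark GATC, the site that bounds the fragments, and CACGTG, the E-box. In the order printed they are chr1:72158357-72158656 just past the end of Mreg, chr19:41334399-41334698 in an intron of Pik3ap1, chr19:41192053-41192352 in an intron of Tll2, chr4:53384155-53384454 between genes, chr1:131918285-131918584 in an intron of Nucks1, chr1:132128341-132128640 in an intron of Cdk18 and chr1:132150920-132151219 between genes. Here and below, genes are the protein-coding genes of the GENCODE annotation, so a fragment called intergenic may still overlap a noncoding gene.
Mreg bait, liver excess: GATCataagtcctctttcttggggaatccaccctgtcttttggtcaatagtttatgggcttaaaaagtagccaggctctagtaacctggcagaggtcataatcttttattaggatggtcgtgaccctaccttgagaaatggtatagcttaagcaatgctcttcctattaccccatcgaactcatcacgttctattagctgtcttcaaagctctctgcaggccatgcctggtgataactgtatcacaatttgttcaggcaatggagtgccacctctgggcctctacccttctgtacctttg
Pi3kap1 bait, liver excess: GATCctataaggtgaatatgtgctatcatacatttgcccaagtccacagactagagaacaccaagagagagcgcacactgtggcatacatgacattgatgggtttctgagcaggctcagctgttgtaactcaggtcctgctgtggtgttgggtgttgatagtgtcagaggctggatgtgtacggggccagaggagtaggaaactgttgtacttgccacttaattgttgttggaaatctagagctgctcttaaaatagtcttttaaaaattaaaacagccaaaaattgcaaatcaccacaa
Pi3kap1 bait, kidney excess: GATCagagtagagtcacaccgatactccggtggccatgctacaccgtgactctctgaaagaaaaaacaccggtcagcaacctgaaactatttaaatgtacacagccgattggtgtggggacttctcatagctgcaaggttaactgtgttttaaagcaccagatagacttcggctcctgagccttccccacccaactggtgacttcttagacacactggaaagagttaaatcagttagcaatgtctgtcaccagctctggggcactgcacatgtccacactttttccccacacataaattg
Slc44a1 bait, liver excess: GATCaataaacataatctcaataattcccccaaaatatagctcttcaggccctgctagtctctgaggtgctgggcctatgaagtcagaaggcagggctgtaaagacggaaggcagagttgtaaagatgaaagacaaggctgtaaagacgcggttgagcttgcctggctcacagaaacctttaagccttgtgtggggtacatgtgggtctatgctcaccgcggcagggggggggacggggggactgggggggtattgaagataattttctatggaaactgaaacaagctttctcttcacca
Slc45a3short bait, liver excess: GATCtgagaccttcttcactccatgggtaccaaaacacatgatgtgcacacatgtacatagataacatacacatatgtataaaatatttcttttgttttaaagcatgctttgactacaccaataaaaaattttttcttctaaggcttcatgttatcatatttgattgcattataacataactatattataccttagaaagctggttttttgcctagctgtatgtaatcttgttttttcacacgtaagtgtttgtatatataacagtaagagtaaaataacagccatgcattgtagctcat
Slc45a3short bait, kidney excess: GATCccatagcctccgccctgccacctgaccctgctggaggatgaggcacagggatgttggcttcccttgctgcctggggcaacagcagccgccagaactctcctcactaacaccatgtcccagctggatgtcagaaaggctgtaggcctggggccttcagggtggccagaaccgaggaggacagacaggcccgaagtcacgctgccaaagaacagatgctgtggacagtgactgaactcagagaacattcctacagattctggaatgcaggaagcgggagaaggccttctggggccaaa
Slc45a3long bait, kidney excess: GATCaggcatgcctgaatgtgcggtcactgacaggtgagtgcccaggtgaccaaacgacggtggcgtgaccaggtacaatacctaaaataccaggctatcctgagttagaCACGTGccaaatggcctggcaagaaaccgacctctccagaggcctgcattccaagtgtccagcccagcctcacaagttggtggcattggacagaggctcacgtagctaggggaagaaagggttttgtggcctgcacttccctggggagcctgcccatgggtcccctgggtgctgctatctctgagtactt
Only the Slc45a3long run among these 7 holds CACGTG, and only the Mreg run holds the core of the CTCF motif as defined below.

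The signal is a smoothed score whose scale is not given in the sources used here, so tissues were compared by the difference, liver minus kidney, and a difference of 0.1 was used as the size to count. The median deposited error of a difference, from the variances that come with the signals, was between 0.0314 for Mreg and 0.0561 for Slc44a1 over these fragments. What that variance covers is not stated. Smoothing tied neighbours together: the difference at 1 fragment and at the next correlated with r between 0.956 and 0.996 on each bait and side (185 to 238 fragments that share reads and smoothing), so counts of fragments are not counts of separate contacts.

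Over all 5 baits, liver was higher by at least 0.1 at 443 of the 2236 fragments (19.8%), against 3.06% of all fragments deposited. Kidney was higher by at least 0.1 at 141 (6.31%), against 2.19% of all. Runs of neighbouring fragments past 0.1 formed 21 liver-higher and 10 kidney-higher stretches. A difference of 0.1 needs a signal of about that size in at least 1 tissue, which 96% of these fragments had, against 29.6% of all and 22.4% of those beyond 200 kb. The background shares given here and for each bait are therefore held down by fragments of low signal, and a share above them was not separated from the level of the signal. The median signal over these fragments was 0.266 in liver and 0.253 in kidney. It was 0.761 and 0.650 within 50 kb of the baits, and 0.0379 and 0.0447 beyond 200 kb. Pooled over the baits, liver was thus the higher tissue near them. Kidney was higher by a small margin in the far flanks, with the fragments at 50 to 200 kb in between. By median difference this order held for Mreg and Slc44a1 only. For Pi3kap1 the liver excess was greatest at 50 to 200 kb (0.133, against 0.0622 within 50 kb). For Slc45a3short and Slc45a3long the kidney excess was greatest at 50 to 200 kb (0.0288 and 0.0145).

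The edges of the window cut through a continuous signal. Just inside the 50 kb edge the signals of the 10 bait sides ranged from 0.186 to 0.990, and just outside it from 0.189 to 0.976. At the 200 kb edge they ranged from 0.0551 to 0.407 inside and from 0.0599 to 0.446 outside. The greatest step across an edge was 0.128, in liver to the right of Pi3kap1.

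**Figure D1:**
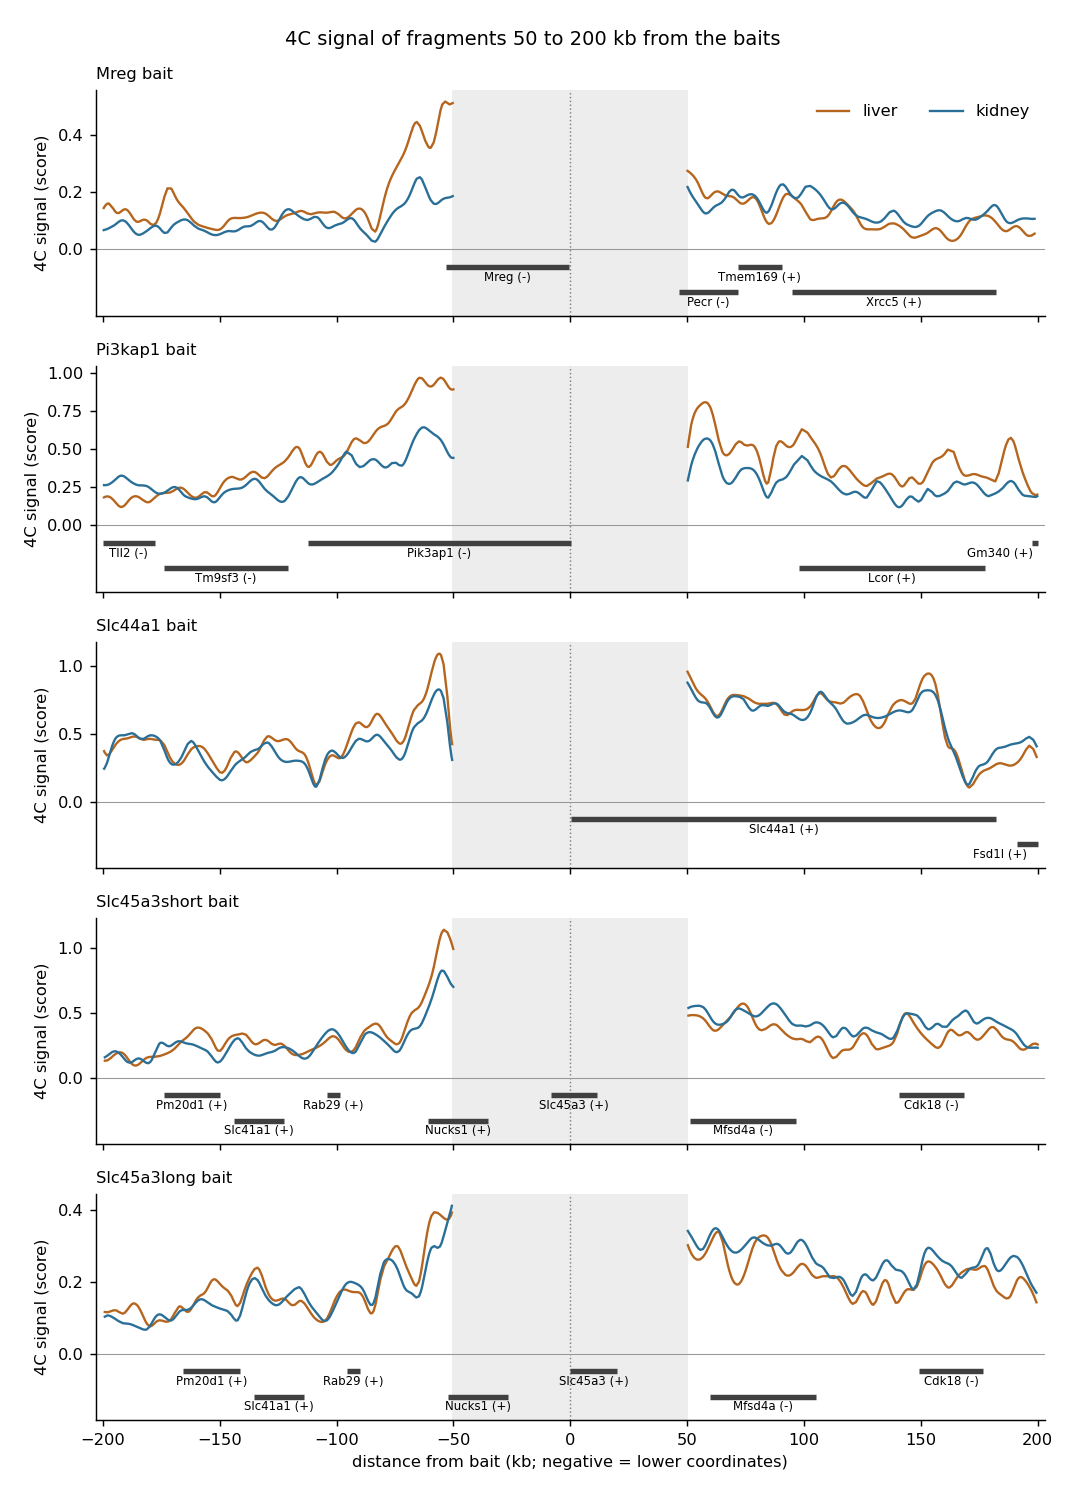
The deposited 4C signal (score, vertical axis, scaled separately for each bait) is drawn against distance from the bait (kb) for liver (orange) and kidney (blue), with the excluded inner 50 kb in grey and gene bodies as bars with their strand. Both tissues follow like outlines, and the lines part next to the left inner edge for Mreg (0.516 against 0.179 at 53.5 kb), Pi3kap1 (0.894 against 0.444) and Slc45a3short (1.12 against 0.773).

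With distance the liver excess on the left shrank for 4 of the baits. To the left of Mreg the median difference was 0.147 at 50 to 100 kb, 0.0299 at 100 to 150 kb and 0.0425 at 150 to 200 kb. To the left of Pi3kap1 it was 0.292, then 0.113, and at 150 to 200 kb kidney was the higher by 0.0262. The Slc44a1 left side went from 0.127 through 0.0555 to a kidney excess of 0.00987, and the Slc45a3short left side from 0.0679 through 0.0323 to 0.00998. From Slc45a3long the left medians stayed between 0.0123 and 0.0145. On the right the order was not shared: the liver excess of Pi3kap1 was 0.189, 0.122 and 0.111 in the same bands, while the kidney excess of Mreg was 0.00726, 0.0332 and 0.0508 and that of Slc45a3short 0.0672, 0.107 and 0.0873.

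The highest signal of a side lay between 50.2 and 62.4 kb from the bait in all but 1 case. It was in liver on the left of Pi3kap1 (0.971 at 55.5 kb, kidney 0.564) and on its right (0.810 at 57.6 kb, kidney 0.569). To the left of Slc45a3short it was 1.14 in liver and 0.82 in kidney at 54.1 kb, in Nucks1. The exception was the right of Slc45a3short, where the highest value was in kidney, at 87.0 kb in Mfsd4a, with 0.571 against 0.411 in liver. Kidney also had the highest values of both Slc45a3long sides, 0.412 against 0.393 in liver at 50.7 kb on the left and 0.35 against 0.338 at 62.4 kb on the right.

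For Mreg the tissues differed in opposite directions on the left and right. Liver was higher at 208 of 220 fragments on the left, with a median difference of 0.0425, and kidney at 185 of 238 on the right, with a median kidney excess of 0.0255. Liver was higher by at least 0.1 at 45 fragments, all on the left, against a background of 2.62% of this bait's fragments. Kidney was higher by at least 0.1 at 4 fragments, all on the right. No other fragment of this bait had such a kidney excess, so the background of 0.0659% consists of these same 4 and compares nothing.

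The main Mreg stretch ran from 50.3 to 78.8 kb on the left, over the 3′ end of Mreg and beyond it, and held 41 fragments with a mean of 0.366 in liver and 0.171 in kidney. Its greatest difference was at 53.5 kb, in the fragment that spans the end of the gene (chr1:72158357-72159923). There it was 0.516 ± 0.0335 in liver and 0.179 ± 0.0335 in kidney, where ± is the square root of the deposited variance here and below. This was also the highest signal of that side. A second liver stretch of 4 fragments, between genes at 169.9 to 173.7 kb, peaked at 0.213 in liver against 0.0593 in kidney.

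To the right of Mreg lie the divergent pair Pecr and Tmem169 and, farther on, Xrcc5. Pecr encodes a peroxisomal enoyl-CoA reductase of fatty acid metabolism, Tmem169 a transmembrane protein, and Xrcc5 the Ku80 subunit that binds broken DNA ends. Over Pecr the mean signal was 0.204 in liver and 0.166 in kidney, with liver higher at 33 of 42 fragments. Over Tmem169 it was 0.148 and 0.177, with kidney higher at all 34. Over Xrcc5 it was 0.0930 in liver and 0.13 in kidney, and liver was higher at 20 of 130. The order of the tissues crossed between 66.8 and 67.2 kb, inside Pecr. The Pecr and Tmem169 start sites lie farther out and share a fragment at 71.7 kb with 0.169 in liver and 0.191 in kidney. Within Xrcc5 the order crossed back in places, with liver slightly higher from 112.6 to 121.7 kb. The greatest kidney excess was at 103 kb in an intron of Xrcc5 (chr1:72315609-72315805), with 0.104 ± 0.0294 in liver and 0.22 ± 0.03 in kidney.

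The Pi3kap1 bait had liver higher at the most fragments of any bait, and on the right at every fragment. On that upstream side all 185 fragments had more signal in liver, with differences from 0.0105 to 0.283 and a median of 0.151. On the left, over the gene and past it, liver was higher at 174 of 224 with a median of 0.0811. Liver was higher by at least 0.1 at 243 fragments (107 left, 136 right), against 5.8% of all fragments of this bait, and kidney at 17, all on the left, against 4.84%. The kidney share was 4.16% of its 409 fragments, near that background, and the liver share was 59.4%. All 409 had a signal of at least 0.1 in either tissue, against 38.9% of all fragments of this bait. The sides differed in how the liver share compared with that within 50 kb: on the right it was 73.5% here and 27.1% nearer, and on the left 47.8% here and 55.2% nearer.

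Within Pik3ap1, 63 neighbouring fragments from 50.1 to 92.5 kb had a mean of 0.787 in liver and 0.487 in kidney. The greatest difference of any bait was at their near end (chr19:41334399-41335045), with 0.894 ± 0.0394 in liver and 0.444 ± 0.0393 in kidney. The next stretch, at 105.2 to 129 kb, covered the 3′ end of Pik3ap1 and the start of Tm9sf3, which encodes a membrane protein of the transmembrane 9 family. Its peak at 122.1 kb had 0.423 in liver and 0.163 in kidney, and the fragment at the Tm9sf3 start had 0.447 and 0.190. Past Tm9sf3 the order turned. Over Tll2, a gene of the tolloid metalloproteases, kidney was higher at all 35 fragments, with means of 0.168 in liver and 0.281 in kidney. The kidney peak at 192.2 kb in an intron of Tll2 (chr19:41192053-41193079) had 0.121 ± 0.0376 in liver and 0.328 ± 0.0374 in kidney, the greatest kidney excess in the windows.

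Upstream of Pik3ap1, 7 separate liver stretches were found. The nearest, at 50.3 to 82.5 kb, lay between genes and held 44 fragments with means of 0.582 and 0.388. Over Lcor, which encodes a corepressor of ligand-bound nuclear receptors, liver was higher at all 96 fragments, with means of 0.357 and 0.236. The fragment nearest to the Lcor start site lay at 99.1 kb, 1.2 kb from that start, and had 0.632 in liver and 0.456 in kidney. Beyond Lcor a narrow intergenic peak at 188.5 kb (chr19:41572654-41573939) reached 0.576 ± 0.0453 in liver and 0.293 ± 0.0461 in kidney. At Gm340, at the far edge, the signals at the start were 0.213 and 0.189.

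**Figure D2:**
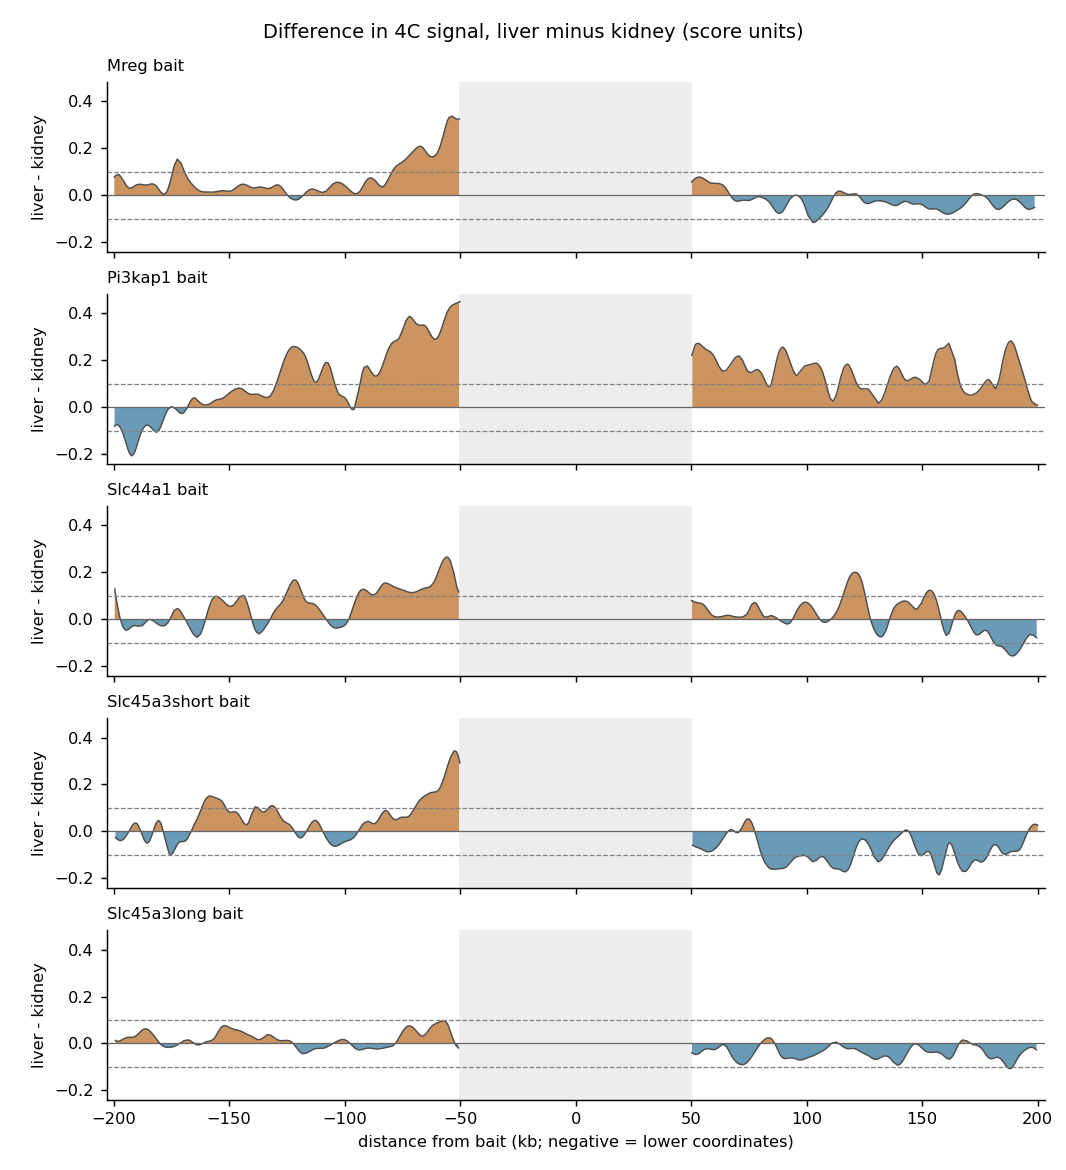
The difference in 4C signal, liver minus kidney (score units), is drawn against distance from the bait (kb), orange above 0 and blue below 0, with dashed lines at 0.1 and -0.1 and 1 vertical scale for all baits. Liver excess lies to the right of the Pi3kap1 bait throughout, while kidney excess lies to the right of both Slc45a3 baits apart from short sections.

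The Slc44a1 windows had high signal in both tissues. On the right, inside the gene, the mean in 10 kb bins stayed between 0.601 and 0.843 in liver and between 0.616 and 0.772 in kidney from 50 to 160 kb. In the next bin, 160 to 170 kb, it was 0.285 in liver and 0.280 in kidney, and at 170 to 180 kb 0.187 and 0.24. The drop lay before the 3′ end of the gene, 182 kb from the bait. Of the 9 local maxima of the liver signal that stood out by at least 0.1, all 9 had a kidney maximum within 3 kb. For Pi3kap1 this held for 3 of 5, for Slc45a3short for 5 of 10, for Slc45a3long for 2 of 4 and for Mreg for 1 of 2. The maxima were counted after the profiles had been seen. The liver and kidney signals correlated across fragments with r = 0.956 on the right of Slc44a1 (224 fragments) and 0.917 on the left (223), while the lowest value was 0.717, on the right of Mreg (238 fragments). These points share the bait, the fall with distance and the smoothing.

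Against that shared outline, liver was higher by at least 0.1 at 100 Slc44a1 fragments (81 left, 19 right; background 4.3%) and kidney at 22, all on the right (background 2.8%). The left liver stretch, upstream of the gene from 50.6 to 93.9 kb, held 64 fragments between genes with means of 0.648 in liver and 0.500 in kidney. Its greatest difference (chr4:53384155-53384606, 55.8 kb) was between 1.09 ± 0.0352 in liver and 0.823 ± 0.0352 in kidney. On the right the median difference was 0.0118 over all 224 fragments, 0.0171 over the 198 that lay in the gene, and a kidney excess of 0.124 over the 26 past its end. With the window ended at 150 kb the median on the right was 0.0247, and it was 0.0232 after centring on the fragments beyond 200 kb and 0.023 over 10 kb bins. The greatest single liver excess inside the gene, 0.785 ± 0.0411 in liver against 0.585 ± 0.0411 in kidney, lay at 121 kb (chr4:53560998-53561416). Kidney excess was found from 181.7 to 193.5 kb, over the 3′ end of Slc44a1 and the start of its neighbour Fsd1l, with means of 0.282 in liver and 0.414 in kidney. The Fsd1l start had 0.285 in liver and 0.429 in kidney, and kidney was higher at all 12 Fsd1l fragments in the window.

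For the Slc45a3short bait the sides again had opposite signs. Liver was higher at 156 of 231 fragments on the left (median difference 0.0370) and kidney at 198 of 233 on the right (median kidney excess 0.0852). Liver was higher by at least 0.1 at 55 fragments, all on the left, against a background of 2.4%. Kidney was higher by at least 0.1 at 94, all on the right, against 3.19%. These 94 were 20.3% of this bait's 464 fragments, while 0 of its 136 fragments within 50 kb and 1.83% of those beyond 200 kb had such a kidney excess. Of the 194 fragments of this bait with such an excess at any distance, 94 lay in this band.

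On the left, 4 genes have their start in the window. Over Nucks1, which encodes a chromatin-associated protein, liver was higher at all 16 fragments, with means of 0.956 and 0.701. The greatest difference of the bait (chr1:131918285-131919354, 52.6 kb) was 1.12 ± 0.0402 in liver and 0.773 ± 0.0401 in kidney. At Rab29, a small GTPase of vesicle trafficking, kidney was higher at all 13 fragments, with means of 0.304 in liver and 0.353 in kidney. At the magnesium transporter gene Slc41a1 liver was higher at all 30, with means of 0.282 and 0.208. At Pm20d1, which encodes a secreted enzyme that makes and cleaves N-acyl amino acids, liver was higher at 31 of 44, with means of 0.297 and 0.234. At the Pm20d1 start the order was the other way, with 0.175 in liver and 0.266 in kidney.

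On the right, the longest kidney stretch in the data described here ran from 80.7 to 119.9 kb and held 60 fragments with means of 0.289 in liver and 0.426 in kidney. It began inside Mfsd4a, a gene of the major facilitator family of transporters, and passed over its start site, with 0.295 in liver and 0.4 in kidney. Farther on, 3 kidney stretches lay over Cdk18, which encodes a cyclin-dependent kinase. The greatest difference (chr1:132128341-132128781, 157.2 kb, intronic) was between 0.229 ± 0.0440 in liver and 0.414 ± 0.0440 in kidney. The fragment next to the Cdk18 start had 0.346 in liver and 0.516 in kidney, and over the gene liver was higher at 3 of 35 fragments.

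The Slc45a3long bait had the fewest fragments past 0.1 and the smallest extreme differences, though not the smallest median on every side. No fragment in its windows had liver higher by at least 0.1 (background 0.28%). Kidney was higher by as much at 4 (background 0.115%, or 7 fragments, these 4 among them), all at 186.8 to 188.6 kb on the right. Its greatest difference was there, in the intergenic fragment with the E-box (chr1:132150920-132151460), with 0.16 ± 0.0257 in liver and 0.267 ± 0.0260 in kidney. Its greatest liver excess was 0.393 ± 0.0323 against 0.295 ± 0.0322 at 56.8 kb on the left, between genes. The median signal was also low, at 0.188 in liver and 0.208 in kidney. Liver was higher at 152 of 231 fragments on the left, with a median of 0.0131, and kidney at 202 of 227 on the right, with a median kidney excess of 0.0382.

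**Figure D3:**
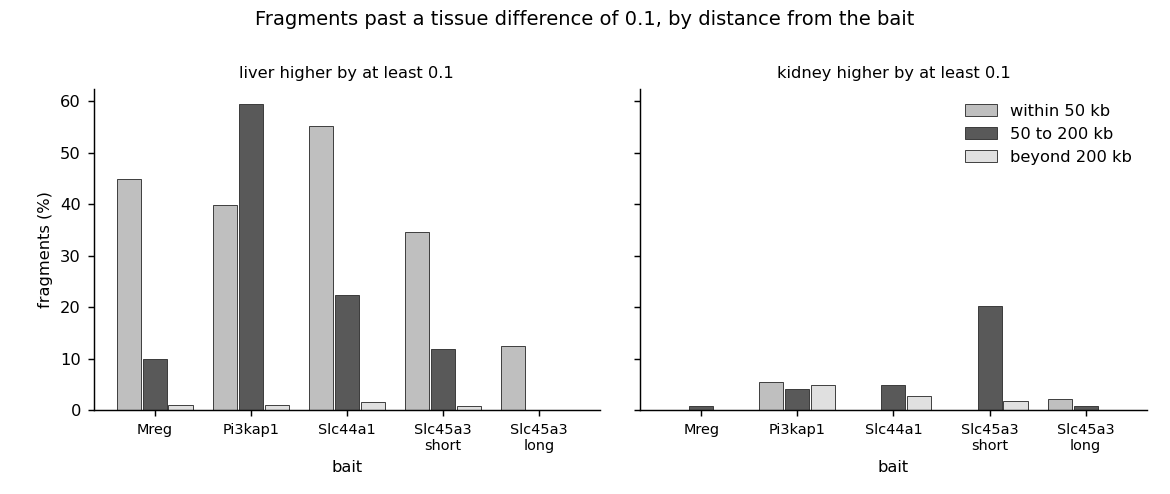
Bars give the percentage of each bait's fragments at which liver (left panel) or kidney (right panel) was higher by at least 0.1, within 50 kb, at 50 to 200 kb and beyond 200 kb of the bait, and a missing bar stands for 0. For Slc45a3short the kidney share is 20.3% at 50 to 200 kb and 1.83% beyond, and for Pi3kap1 the liver share is 59.4% at 50 to 200 kb.

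The Slc45a3 baits read the same neighbourhood in separate libraries of the same tissues and time, and 436 fragments lay in both windows on the same side. The differences had the same sign from both baits at 353 of them (81.0%): 156 of 220 on the left (70.9%) and 197 of 216 on the right (91.2%). Kidney was higher from both baits at 181 of the 216 right fragments. Of 138 shared fragments past 0.1 from the short bait, 127 had the same sign from the long bait, 39 of 44 on the left and 88 of 94 on the right. The long bait had kidney higher at 202 of all 227 fragments of its right window. Most right fragments would thus share that sign whatever their size from the short bait. The differences correlated across fragments with r = 0.688 over both sides, 0.556 on the left and 0.259 on the right. These fragments share sequence, mappability and smoothing. The libraries of both baits also carry the same replicate labels, EF and GH, in liver and in kidney at ZT20. Those of Mreg and Slc44a1 carry them too. Agreement between any of these baits cannot be taken as that of independent animals.

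The sizes were smaller from the long bait. On the shared right fragments the median kidney excess was 0.0875 from the short bait and 0.0382 from the long one. The median liver signal there was 0.334 and 0.212, and the kidney signal 0.42 and 0.255. On the right the genes followed this order. Over Mfsd4a the means were 0.434 in liver and 0.490 in kidney from the short bait, and 0.265 and 0.305 from the long one. Over Cdk18 they were 0.349 and 0.437, then 0.225 and 0.25. Kidney was higher at all 13 Rab29 fragments from both baits. The other left genes matched less well. Over Slc41a1 the means from the long bait were 0.164 in liver and 0.162 in kidney, with liver higher at 20 of 30. Over Pm20d1 they were 0.167 and 0.129, with liver higher at 38 of 44. At the Pm20d1 start, where kidney was higher from the short bait, the long bait gave 0.127 in liver and 0.122 in kidney. Of Nucks1, 5 fragments were in the long bait's window, against 16 in the short bait's. The means of these 5 were 0.383 in liver and 0.392 in kidney, with liver higher at 1.

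**Figure D4:**
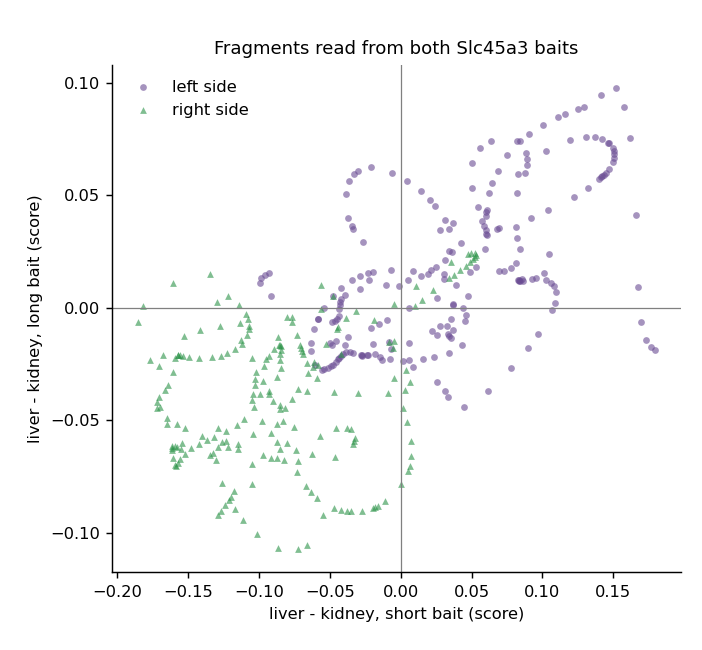
Each point is 1 of 436 fragments in both Slc45a3 windows, with the difference liver minus kidney (score) from the short bait on the horizontal axis and from the long bait on the vertical axis. Right-side fragments (triangles) gather at the lower left, where kidney was higher from both baits (181 of 216), and the points form loops because neighbouring fragments were smoothed together.

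Start sites of 14 protein-coding genes lay in the windows, 6 of them in both Slc45a3 windows. Their RNA was read in the 12 WT kidney libraries (129SV mice, night-restricted feeding, 6 time points with 2 libraries each), which differ from the 4C-seq mice in strain and feeding. No liver RNA was used here, so contacts cannot be set against a difference in expression between the organs. In these libraries the proximal tubule marker Slc34a1 had a median of 1476.2 TPM (transcript abundance scaled to the same total in each library) and the thick limb marker Umod 1248.1 TPM, while the hepatocyte markers Alb, Apoa1 and Ttr had 2.42, 0.540 and 53.2 TPM. RNA levels of a gene compare whole kidneys, in which fewer cells of a type and less RNA per cell cannot be told apart.

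Of the 14 genes, 11 had a mean of at least 1 TPM. Pecr was the most abundant, at 273 to 348 TPM with a median of 302. Mfsd4a followed, at 42.9 to 68.6 TPM (median 54.8), and Tm9sf3 at 42.5 to 48.4 TPM (median 45.5), so these neighbours in the order overlapped. Pm20d1 ranged from 23.4 to 45.3 TPM (median 36.4) and overlapped both of them. Cdk18 lay at 18.3 to 24.8 TPM (median 20.6) and Xrcc5 at 16.1 to 18.5 (median 17.0), and each overlapped the gene above it in the order. Below them came Nucks1 (median 13.4 TPM), Rab29 (10.2), Tmem169 (6.66), Slc41a1 (4.11) and Lcor (1.67). Gm340 had a median of 0.703 TPM and Fsd1l 0.616, and Tll2 was listed at 0 in its median library with a highest value of 0.00497.

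The genes under kidney-higher contact did not form 1 level of expression. Mfsd4a and Cdk18, with kidney excess from both Slc45a3 baits, were at medians of 54.8 and 20.6 TPM in kidney. Tll2 and Fsd1l, with kidney excess over all their fragments in the window, were at 0 and 0.616 TPM. Between these levels were Xrcc5, Rab29 and Tmem169, at 17.0, 10.2 and 6.66 TPM, with kidney higher over most or all of their fragments. Tm9sf3, whose start fragment had one of the greater liver excesses, was at 45.5 TPM. The bait genes themselves had medians of 1.44 TPM for Mreg, 0.552 for Pik3ap1, 13.4 for Slc44a1 and 10.3 for Slc45a3.

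**Figure D5:**
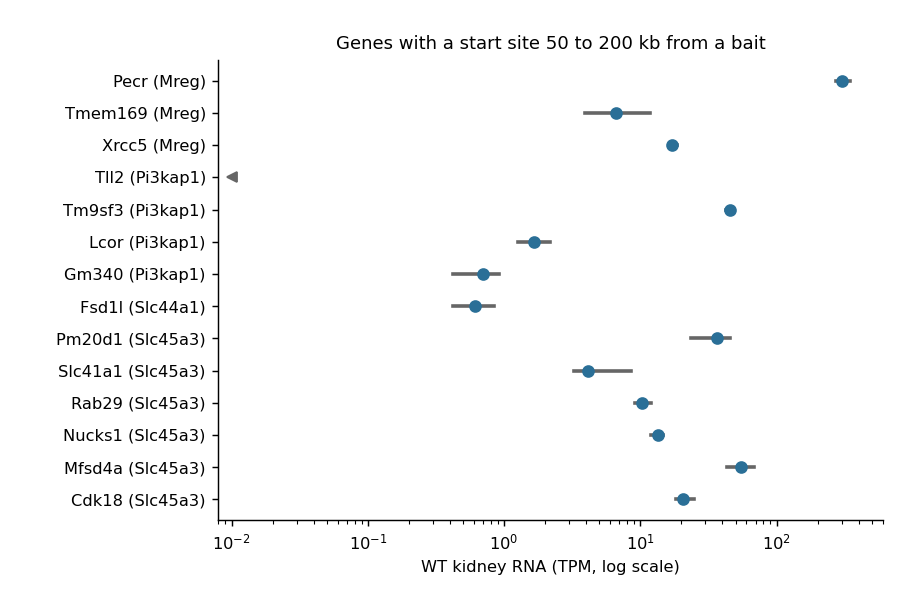
Dots give the median and bars the lowest to highest RNA level (TPM, log axis) over the 12 WT kidney libraries for the 14 genes whose start sites lie 50 to 200 kb from a bait, and the arrow marks a median of 0. Levels run from 0 for Tll2 to 302 TPM for Pecr, and the genes of 1 bait do not share a level.

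Promoters of 12 of the 14 genes were found in RefSeq (GRCm38.p6), as 250 bases before to 50 after each start. The E-box, CACGTG, which reads the same on both strands, was present in 4 of them: Tmem169, Xrcc5, Mfsd4a and Cdk18. It was present in the promoters of 8.09% of 27025 genes, and no test was made of 4 genes. The Cdk18 promoter is shown because the kidney excess of both Slc45a3 baits extended over this start, with CACGTG in capitals. It is given on the minus strand, the strand of the gene, for the 250 bases before the start (chr1:132139686-132139935).
Cdk18 promoter: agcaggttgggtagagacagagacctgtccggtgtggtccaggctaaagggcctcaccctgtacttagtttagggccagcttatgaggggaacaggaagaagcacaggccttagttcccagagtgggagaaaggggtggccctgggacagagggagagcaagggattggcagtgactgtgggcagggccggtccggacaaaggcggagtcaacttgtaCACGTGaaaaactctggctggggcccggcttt
A match in these letters is not a binding site, and BMAL1 binding was not measured here.

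Motif shares, length and GC content are set beside those of all deposited fragments, which include the ones described here. Exon and intron shares were counted in these windows only. Of the 2236 entries, 14.4% overlapped an exon, 38.0% lay in introns only and 47.6% between genes. Intronic fragments were most common for Pi3kap1 (57.9%) and least for Slc45a3short (28.9%). In 300-base windows, CACGTG was found in 3.50% of the 1800 distinct fragments and in 3.34% of all 24022. A core of the CTCF motif, read here as CC, 3 bases of any kind, AG, 2 of any kind and GGC, was found on either strand in 4.22% and 3.43%. The median fragment length was 468 bases here and 447 over all, and the median GC content 44.2% and 43.2%. The tissue difference had little relation to fragment length, with r between -0.0497 and 0.0751 for the 5 baits (409 to 464 fragments each). With GC content r lay between -0.202 for Slc45a3short and 0.0458 for Pi3kap1. These correlations are over fragments that share smoothing, and the part of GC content in the differences was not tested.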

How the data were processed

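For each bait the authors deposited a smoothed 4C-seq signal, a score per tissue and fragment, with a variance, per the file headers. The deposited Z-scores and p-values were not used. The submitters' processing notes name mm9 for 4C-seq; the smoothing and the aligner are not given in the sources used here. Depth is unknown. Fragment offsets were placed on the GATC sites of GRCm38, where 1 position per bait fitted 100% of them. All coordinates and sequences come from that match and GENCODE M21, not from mm9. Counts, medians and stretches of the difference were computed with Python 3.11.15, pandas 2.3.3 and numpy 2.4.6, and the counting was tested on simulated data.

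For RNA the authors deposited TPM per transcript, made with kallisto 0.42.4 on GRCm38/mm10 per the submitters' processing notes. Transcripts were summed to genes; 86031 of 88198 matched. Columns sum to between 999999 and 1000001, so depth is unknown. Only WT libraries were used.

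Named were, by rule, each protein-coding gene starting in a window and, per bait and side, the fragments of greatest difference and highest signal. The fragments and lists were chosen with earlier results of these data known. Alternatives covered the ratio, thresholds, centring, 10 kb bins, a filter on low signal, window edges, and for RNA the genes and libraries used.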

Additional observations from a re-analysis of the deposited data

How the results depend on the processing

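The median differences of the 10 bait sides kept their direction in all 40 values from 4 alternatives in score units (centring on the fragments beyond 200 kb, 10 kb bins, and windows from 60 kb or to 150 kb). In 39 the value moved by less than the deposited error, but 6 moved by over 1.5 times. That error belongs to the difference at 1 fragment, not to a median. Some medians were themselves below it, such as 0.0118 against 0.0576 to the right of Slc44a1 and 0.0131 against 0.0304 to the left of Slc45a3long. The 39 therefore do not show that the medians are stable. Ending the window at 150 kb gave 0.175 in place of 0.0811 to the left of Pi3kap1, which leaves out the Tll2 fragments, 0.104 in place of 0.0674 to the left of Slc44a1, and 0.0593 in place of 0.037 to the left of Slc45a3short. To the right of Slc44a1, 0.0118 became 0.0247 with that window, 0.0232 with centring and 0.023 with bins. The median ratio of liver over kidney lay on the same side of 1 as the difference for all 10 sides. This was bound to hold, because every signal in the windows was above 0, and it tested nothing about direction. The filter on low signal removed 0 of the 2236 fragments and tested nothing. The share of fragments past the difference depended on its size. At a difference of 0.05, 34.1% were higher in liver and 19% in kidney, and at 0.2 6.44% and 0.0447%, against 19.8% and 6.31% at 0.1. At least 1 TPM was reached by 11 genes, also with the libraries of the matched ZT. Among those genes alone the median of the mean levels was 17.1 TPM, against 11.9 for all 14.

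No paired analysis was possible because the 2 libraries of each tissue are combined in the deposited signal. For the same reason no library was left out and no p-value was computed.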
